A study of Bos taurus with 20 samples.

Results

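Kinesins are motor proteins that use ATP to walk along or take apart microtubules. Some build and move the spindle and the chromosomes in mitosis and meiosis, others carry vesicles, mitochondria, and RNA, and others work in the cilium. A fully grown oocyte is arrested in meiotic prophase, stores mRNA for its later divisions, and forms a spindle without centrioles, whereas granulosa and cumulus cells of a growing follicle divide by mitosis.

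The kinesin motor genes studied were all genes whose name on the array starts with KIF and a number, or KIFC and a number. They were 39 genes with 114 probes, out of 22550 genes or transcripts and 61325 probes. By their textbook roles they fell into 12 spindle and division kinesins, 17 transport kinesins, 6 cilium and signalling kinesins, and 4 others.

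Gene expression was measured on 20 single-color bovine arrays, 4 each of the theca (TH), of granulosa (GC) and cumulus (CC) cells, of immature oocytes, and of CC that had been matured in vitro (IVM) for 4 h. All came from bovine ovaries collected after slaughter and from follicles of 3 to 6 mm, and TH were scraped off the follicle wall, so that a TH sample can hold other cells of the wall. Each array was hybridized with Cy3-labeled cRNA made from 200 ng of total RNA, and no genotype, breed, or age is used here. The p-values measure the spread between the 4 samples of a group, which the study calls biological replicates.

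A level is given here as log2 of the spot intensity after background subtraction relative to the 75th percentile of that array, and the spots of a gene were summarized by their median. A level of 0 is therefore the 75th percentile of the array, and a difference of 1 between levels of the same gene is a doubling. Levels of different genes come from different probes and are not compared. A gene was called when its adjusted p was under 0.05 in limma with Benjamini–Hochberg adjustment over all 22550 genes.

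The labels were checked against marker genes. All 6 oocyte markers (GDF9, BMP15, ZP2, ZP3, ZP4, and NLRP5) were higher in oocytes than in the somatic cells, all 5 theca markers were higher in TH than in GC and CC, and all 4 granulosa and cumulus markers were lower in TH than in GC and CC. The share of probes well above background was 56.7 to 62.8% on the TH, GC, and CC arrays, 54.2 to 58.3% on the arrays of CC after IVM, and 62.6 to 68.8% on the oocyte arrays of replicates 1, 3, and 4, while oocyte replicate 2 had 49.3%. Without that oocyte array, 21 kinesins were called higher and 9 lower in oocytes. Replicates 1 and 2 of TH, GC, CC, and oocytes lay on 1 slide and replicates 3 and 4 on another, and all 4 arrays of CC after IVM lay on the remaining slide.

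Kinesin probes had 60 bases each, and every kinesin gene was measured by more than 1 sequence. The first 30 bases are shown for 6 genes whose results turn on their probes, with 2 of the 4 sequences of KIF6 and of KIF17, from 5′ to 3′ as the array file lists them, with the stretch that overlaps another probe of the same gene in capitals. The transcripts lay on UMD 3.1 at chr8:76990452-77062826 for KIF24, chr23:13389459-13520727 for KIF6 probe A, chr23:13389447-13520727 for KIF6 probe B, chr2:132533579-132584194 for KIF17 probe A, chr2:132533579-132541815 for KIF17 probe B, chr2:47315201-47472004 for KIF5C, chr8:9276105-9481183 for KIF13B, and chr9:103936143-103982549 for KIF25.
KIF24 probe A: atctgccccaccagccctcGGGAGGTTAGC
KIF24 probe B: GGGAGGTTAGCTTCTGAAAATGTAAAATGA
KIF6 probe A: gcCCCCTCCGAAAACAAAGATCAAAACTGC
KIF6 probe B: CCCCTCCGAAAACAAAGATCAAAACTGCCA
KIF17 probe A: cccttcaccaaggccaagcgtaagaaaagc
KIF17 probe B: accattaaatgccccacccgaacacatctg
KIF5C probe A: ccaagtcaacactcatgtttggacaaaggg
KIF5C probe B: ccaccaccacaactgtctggtttcctgtaa
KIF13B probe A: aattgtctccaatattccagaggatgctca
KIF13B probe B: caaaaaacaatgtttggccagtttacaata
KIF25 probe A: tcggaggtgatgcaaagttacaggtgatcg
KIF25 probe B: agaggagagaatagttgagctggaaacgga

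The KIF24 probes overlapped by 41 bases and gave oocyte-minus-somatic differences of 5.37 and 5.88, so both placed KIF24 far higher in oocytes. KIF6 probes A and B overlapped by 58 bases, yet probe A was well above background on all 20 arrays and probe B on 3 of 20. The plot of probe levels by group shows how far the probes of 6 genes follow each other.

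**Figure D1:**
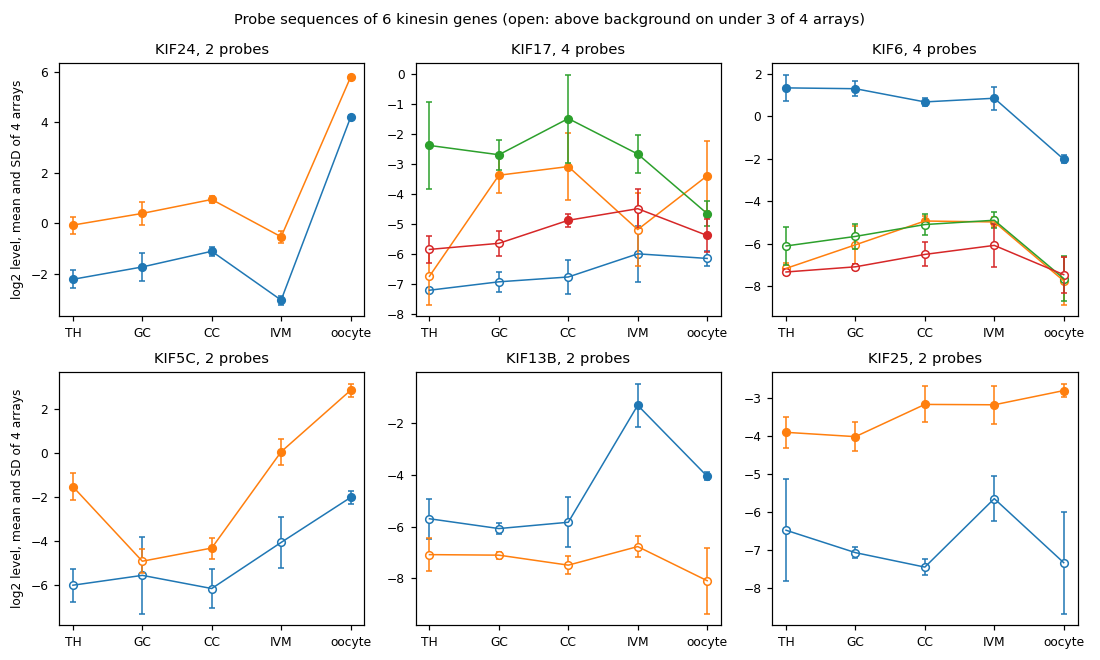
Level of each probe sequence of KIF24, KIF17, KIF6, KIF5C, KIF13B, and KIF25 (y axis, log2 level) in TH, GC, CC, CC after IVM, and oocytes (x axis), as mean and SD of 4 arrays, with open points where under 3 of the 4 arrays were well above background. The KIF24 probes run in parallel, whereas the KIF17 probes take different courses and only 1 of the KIF13B probes is above background after IVM.

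In each cell type most kinesin genes were above background. A gene counted as above background on an array when at least 1 of its spots was, whereas its level is the median of its spots. KIF6 counted on all 4 oocyte arrays through probe A alone, at a mean level of -7.24. The share over all genes is not given here, and that over all probes is given above. Of the 39 genes, the TH arrays had 27 well above background on at least 3 of 4 arrays, GC had 26, CC had 28, CC after IVM had 27, and oocytes had 32. In oocytes 3 genes were not above background on any array, namely KIF1A, KIF21A, and KIF21B, against 8 genes each in TH and GC and 5 in CC. KIF21B, a transport kinesin best known from neurons and lymphocytes, was not above background on any of the 20 arrays.

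Over TH, GC, CC, and oocytes, 31 of the 39 kinesins differed among the 4 cell types in limma's F-test, where 71.3% of all genes did. The 31 were 10 of 12 spindle and division kinesins, 13 of 17 transport kinesins, 6 of 6 cilium and signalling kinesins, and 2 of 4 others. In bulk RNA, fewer cells of a type and less RNA per cell cannot be told apart.

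**Figure D2:**
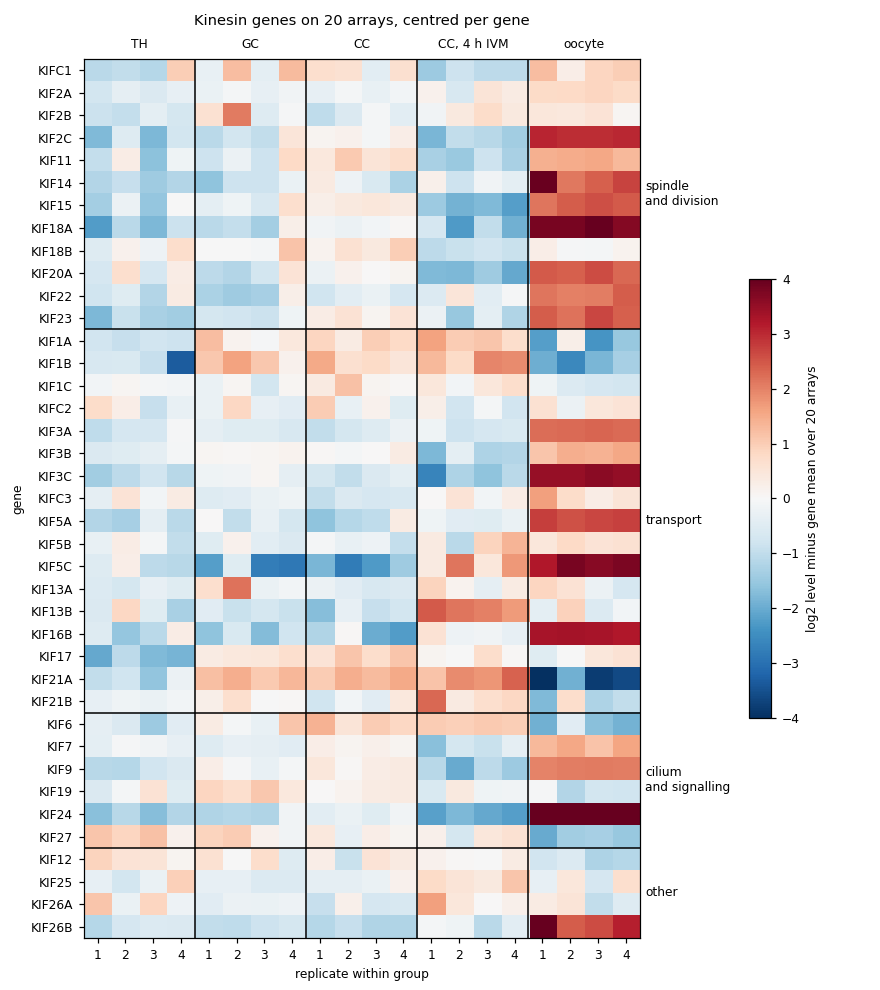
Level of the 39 kinesin genes (rows, by role) on the 20 arrays (columns, by group and replicate), each gene centered on its mean over the 20 arrays, in log2 units with the color scale ending at 4 and -4. The oocyte columns are the darkest red for KIF24, KIF18A, KIF3C, and KIF5C and the darkest blue for KIF21A.

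Oocytes had higher levels of most spindle kinesins than the follicular somatic cells, and of several transport kinesins. Compared with the average of TH, GC, and CC, 21 kinesins were higher in oocytes, where 32.9% of all genes were higher, and 8 were lower, where 38.3% of all genes were lower. The median difference over the 39 kinesins was 1.10, beside -0.52 over all genes and 0.19 for the 10012 genes detected above background on each of the 16 arrays. Except for KIFC3, a minus-end-directed motor, all oocyte arrays lay above all 12 somatic arrays for each kinesin called higher. The share of all genes called higher that did the same is not given here, so this is not read as particular to kinesins.

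Among the 12 spindle and division kinesins, 9 were higher in oocytes and 3 had no call, with a median difference of 2.63. KIF18A, which aligns chromosomes at the metaphase plate, had levels of 1.32, 1.33, 1.59, and 1.21 in oocytes, whereas the 12 somatic arrays lay between -4.70 and -2.25. The difference was 4.64 ± 0.27 (SE), or 24.9-fold (adjusted p = 2.4e-10).

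KIF2C, which takes apart microtubules at the kinetochore, reached 5.19, 5.08, 5.07, and 5.15 in oocytes. The somatic arrays lay between 0.35 and 2.61, all below the oocyte arrays. KIF2C was thus 3.55 ± 0.27 (SE) higher in oocytes, or 11.7-fold (adjusted p = 8.8e-09). KIF14, a motor of cytokinesis, was measured on all 4 oocyte arrays, at -1.90, -3.72, -3.46, and -3.13. It was called higher (adjusted p = 5.7e-08), but only 2 of 12 somatic arrays, both CC, were above background, so no fold is given.

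The remaining spindle kinesins called higher were spread from 1.10 to 2.94. KIF23, the motor of the centralspindlin complex, was higher by 2.94, and KIF22, a motor on chromosome arms, by 2.83. KIF20A, which moves the chromosomal passenger complex to the midzone, was higher by 2.66, and KIF15, which helps to keep spindle poles apart, by 2.59. KIF11, the tetrameric motor that separates the poles, was higher by 1.51, and KIF2A, a depolymerase at the poles, by 1.10.

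KIF18B, KIFC1, and KIF2B had no call. KIF18B, the relative of KIF18A that shortens astral microtubules, lay between -2.37 and -2.03 in oocytes, inside the somatic range. KIFC1, which bundles microtubules at the poles, averaged -1.44 ± 0.41 (SD, n = 4) in oocytes and -1.90 ± 0.53 (SD, n = 4) in CC, and its arrays overlapped. These KIFC1 levels lie between 2 sequences far apart. The brighter, above background on 20 arrays, averaged 2.03 in oocytes and 1.89 in CC. The dimmer, above background on 6 arrays, averaged -4.97 and -5.82. KIF2B, a depolymerase of the kinetochore region, was above background on 2 oocyte and 2 GC arrays.

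Of the 17 transport kinesins, 8 were higher in oocytes, 4 were lower, and 5 had no call, with a median difference of 0.65. KIF13B was among those without a call. Its probe A was above background on 4 oocyte arrays and 1.82 higher in oocytes, with 2 spots called higher. Probe B was above background on 0 oocyte arrays and differed by -0.87. The kinesin-1 heavy chains, which carry mitochondria, vesicles, and RNA, were all higher. KIF5C had levels of 0.02, 0.61, 0.47, and 0.59 on the oocyte arrays against -6.02 to -2.92 on the somatic arrays. Its difference was 5.18 ± 0.38 (SE, adjusted p = 4.7e-09). Probe A was above background on 9 of 12 somatic arrays and differed by 6.46, whereas probe B was above background on 1 of 12 and differed by 3.90, so no fold is given.

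KIF5A was called higher (adjusted p = 1.9e-08), but was measured on 4 oocyte arrays and 1 of 12 somatic arrays, so no fold is given. KIF5B, the form found in most tissues, differed least, by 0.93 ± 0.22 (SE). Kinesin-2, which drives transport into the cilium and in axons, was likewise higher in oocytes in its KIF3 subunits.

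KIF3C had levels of 4.40, 4.40, 4.52, and 4.44 in oocytes against -0.46 to 0.99 on the somatic arrays. With a spread of 0.06 (SD) over the oocyte arrays, the difference was 4.15 ± 0.14 (SE), or 17.7-fold (adjusted p = 3.3e-13). KIF3A was higher by 2.84 and KIF3B by 1.45. KIF16B, which moves early endosomes, was at -1.65, -1.61, -1.66, and -1.75 in oocytes. It was called higher (adjusted p = 3.9e-08), but only 2 of 12 somatic arrays were above background, so no fold is given.

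The transport kinesins lower in oocytes were KIF21A, KIF1B, KIF1A, and KIF1C. KIF21A, which limits microtubule growth at the cell cortex, was measured on 11 of 12 somatic arrays and stayed within background on all oocyte arrays. It was at least 4.65-fold lower in oocytes (adjusted p = 2.6e-08). KIF1A, a carrier of synaptic vesicle precursors, was not above background on any oocyte or TH array, so no fold is given. KIF1B, a carrier of mitochondria and vesicles, was 2.07 lower, with TH replicate 4 below the oocyte arrays. KIF1C was 0.58 lower, with overlapping arrays. Its brighter sequence, above background on 20 arrays, differed by -0.12 and had no call. The dimmer, above background on 2 oocyte arrays, differed by -1.05.

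KIF17, a homodimeric kinesin-2, had no call in this contrast, and its probes were called in both directions. Probe A had no call (adjusted p = 0.12 and 0.19 for its 2 spots in limma), with means of -3.40 ± 1.17 (SD, n = 4) in oocytes, -3.38 ± 0.60 (SD, n = 4) in GC, -3.09 ± 1.12 (SD, n = 4) in CC, and -6.74 ± 0.94 (SD, n = 4) in TH. Probe B averaged -4.66 ± 0.42 (SD, n = 4) in oocytes, 2.46 below the somatic mean, and was called lower. The higher calls were those of both spots of another KIF17 sequence, which were higher in oocytes, by 0.73 and 0.90, but above background on 2 oocyte arrays and no others.

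**Figure D3:**
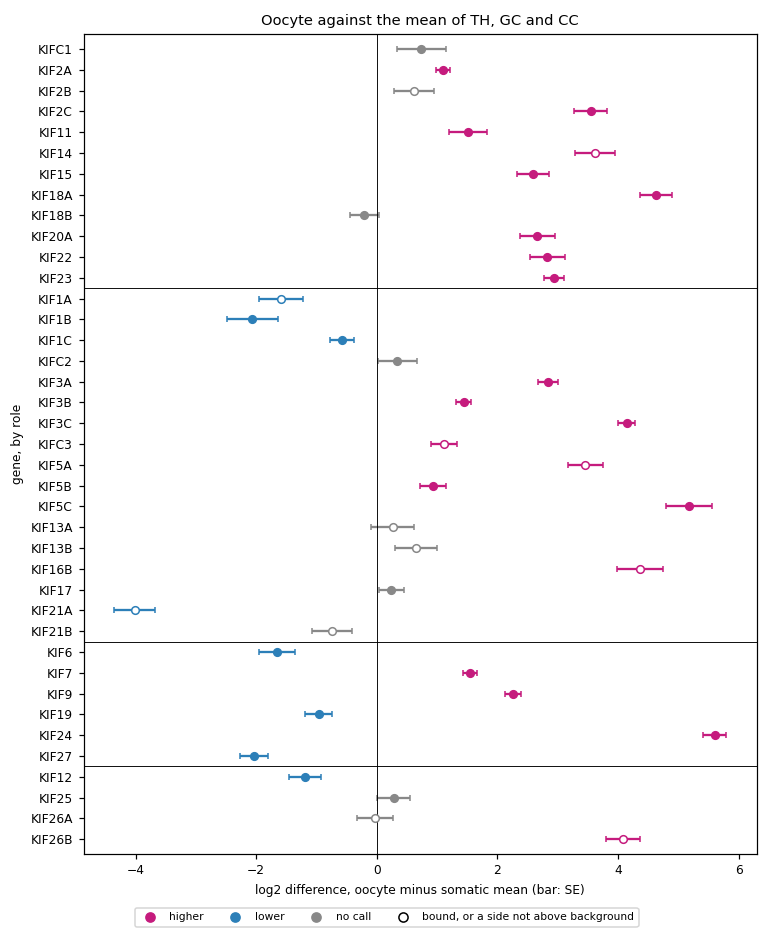
Difference in log2 level of each kinesin gene between oocytes and the mean of TH, GC, and CC (x axis, with SE from the fit over 16 arrays), genes ordered by role (y axis), colored by call. Points are open where a group of the dimmer side, or a whole side, was not above background on any array. The spindle kinesins at the top lie to the right of 0 apart from KIF18B, whereas KIF21A lies farthest to the left at -4.01.

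All 6 cilium and signalling kinesins were called, 3 in each direction. KIF24, a centriolar kinesin that restrains cilium growth, had levels of 4.97, 5.01, 4.91, and 5.08 in oocytes and between -1.43 and 0.14 on the somatic arrays. The difference of 5.61 ± 0.19 (SE), or 48.8-fold (adjusted p = 4.2e-13), was the largest of the 39 kinesins. KIF9, a motor of motile cilia, was higher by 2.27, and KIF7, which regulates hedgehog signalling at the cilium tip, by 1.55.

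KIF27, a relative of KIF7 linked to motile cilia, was lower in oocytes. Its oocyte levels were -5.25, -4.65, -4.58, and -4.76, with 3 arrays above background, and its somatic levels lay between -3.60 and -2.09 without overlap. The difference was -2.03 ± 0.24 (SE), or 4.09-fold (adjusted p = 1.2e-06). KIF6 was lower by 1.65 and KIF19, which sets cilium length, by 0.96, both with overlapping arrays. KIF6 probe A gave a difference of -3.13 and probe B one of -2.02.

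Among the 4 other kinesins, KIF26B was higher and KIF12 lower in oocytes. KIF26B, known from kidney development and WNT5A signalling, was at -1.69, -3.86, -3.66, and -3.17 in oocytes and was above background on 1 of 12 somatic arrays. It was called higher (adjusted p = 2.4e-09), and no fold is given. KIF12 was 1.19 lower, with 1 oocyte array above background. KIF25 had no call. Its probe A, above background on 20 arrays, differed by 0.89, and probe B, above background on 1 array, by -0.33.

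Genes that work with kinesins were looked at in the same contrast. Of 16 kinesin partners, 8 were higher and 4 lower in oocytes, where 32.9% of all genes were higher and 38.3% lower. The 16 include CENPE, which is itself a motor of cell division. The kinesin light chains split. KLC3 was higher by 5.52 ± 0.23 (SE), whereas KLC1, KLC2, and KLC4 were lower by 2.00, 1.23, and 1.46. KIFAP3, the cargo adaptor of KIF3A and KIF3B, was lower by 0.46 ± 0.11 (SE) although its motor partners were higher.

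Of 19 spindle partners, 17 were higher in oocytes and 1 was lower, with a median of 2.93. TACC3, which stabilizes spindle microtubules, was higher by 6.01 and AURKA, a kinase of spindle poles, by 5.21. NUMA1, which anchors dynein at the poles, was lower by 1.97. Of 12 proliferation markers, 8 were higher in oocytes, and MKI67, present in cycling cells, had no call at 0.53 ± 0.33 (SE).

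When the background was corrected by normexp, the counts became 19 higher and 18 lower, KIFC3 was called lower, and the differences of KIF14 and KIF26B shrank to 0.55 and 0.63. Quantile normalization moved the median of all genes from -0.52 to -0.01 and left 24 kinesins higher and 7 lower.

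**Figure D4:**
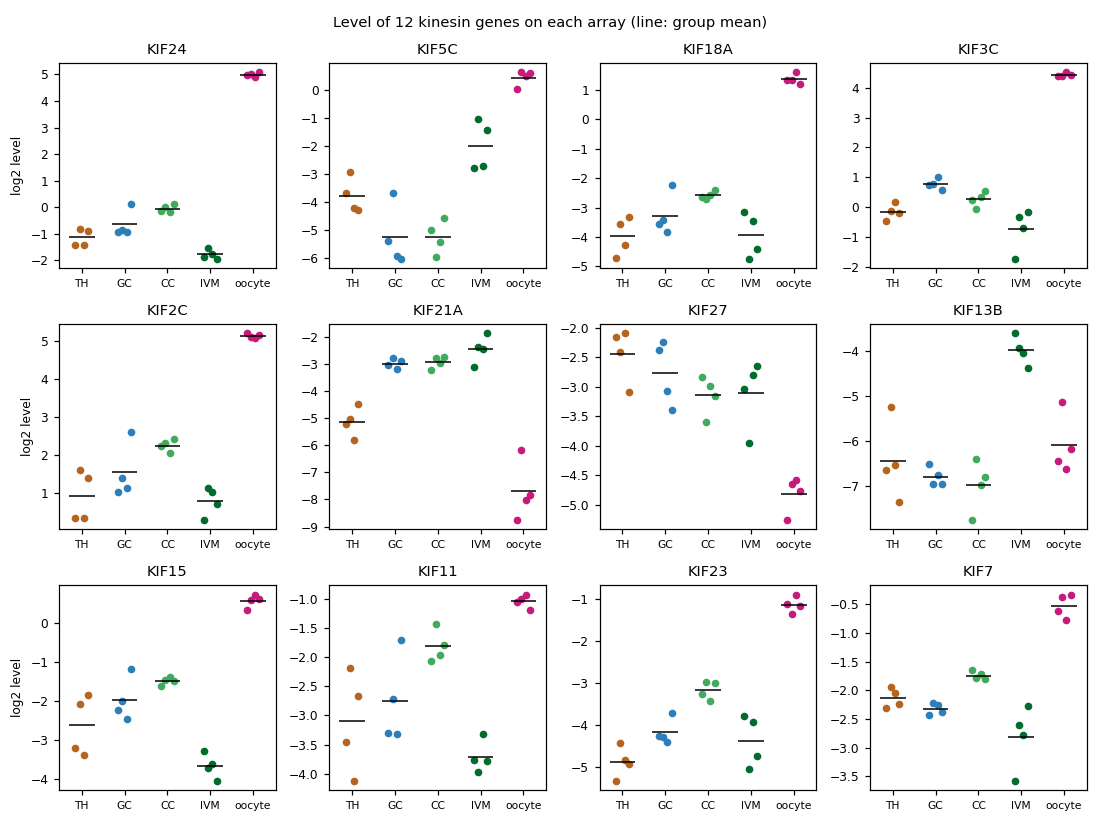
Level of 12 kinesin genes (y axes, log2 level) on each array of TH, GC, CC, CC after IVM (marked IVM), and oocytes, with a line at the group mean of 4 arrays. The oocyte points of KIF24, KIF18A, KIF3C, and KIF2C sit above all others, and the points of KIF15, KIF11, and KIF24 after IVM sit below those of CC.

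TH had lower levels of a number of kinesins than GC and CC. Against the mean of GC and CC, 13 kinesins were lower in TH, where 18.5% of all genes were lower, and 2 were higher, where 14.3% of all genes were higher. The median over the 39 kinesins was -0.35 beside -0.11 over all genes. The 13 were 4 spindle, 6 transport, and 3 cilium and signalling kinesins.

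KIF21A was at -5.22, -5.03, -5.82, and -4.48 in TH against -3.23 to -2.73 in GC and CC, with no overlap. The difference was -2.18 ± 0.36 (SE, adjusted p = 0.0002), with 3 of 4 TH arrays above background. In the order of its mean levels, CC after IVM came first at -2.45 ± 0.50 (SD, n = 4), then CC at -2.93 ± 0.22 (SD, n = 4) and GC at -2.99 ± 0.17 (SD, n = 4), then TH, and oocytes were not above background. No difference was called between CC after IVM and CC (adjusted p = 0.17) or between CC and GC (adjusted p = 0.95). KIF1B, at -4.23, -4.19, -4.49, and -6.91 in TH, was 2.29 ± 0.45 (SE) lower than in GC and CC (adjusted p = 0.00088), with 3 of 4 TH arrays above background.

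KIF17 was at -7.23, -6.23, -6.92, and -7.05 in TH against -4.86 to -4.05 in GC and CC. It was called lower in TH, at -2.36 ± 0.22 (SE, adjusted p = 6.6e-07), but in TH only probe B was above background on all 4 arrays, probe A on 1, and the remaining 2 sequences on none, so no fold is given. The call was lost with the brightest probe, probe B, at -0.29 (adjusted p = 0.79). KIF1A was lower in TH (adjusted p = 0.0098), with no TH array above background and no fold given. KIF6 was called lower by 1.32, while its probe A averaged 1.34 ± 0.63 (SD, n = 4) in TH, 1.30 ± 0.34 (SD, n = 4) in GC, and 0.68 ± 0.19 (SD, n = 4) in CC.

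KIF5C and KIFC3 were higher in TH. KIF5C was at -3.69, -2.92, -4.21, and -4.29 in TH against -6.02 to -3.67 in GC and CC, a difference of 1.48 ± 0.40 (SE, adjusted p = 0.0099) with overlap at GC replicate 2. In the order of mean KIF5C levels, oocytes came first at 0.42 ± 0.28 (SD, n = 4), then CC after IVM at -2.00 ± 0.89 (SD, n = 4), TH at -3.78 ± 0.63 (SD, n = 4), and GC and CC, both at -5.25. No difference was called between GC and CC (adjusted p = 1.0), and CC after IVM was not tested against oocytes or TH. KIFC3 was above background on 1 TH array and on no GC or CC array, and its call was lost when any one of the GC arrays was left out.

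The TH arrays also held markers of blood vessels and blood cells. PECAM1, of endothelium, averaged 0.25 in TH against -5.37 in GC and -6.82 in CC, and PTPRC, of leukocytes, was above background on 4 TH arrays and on no GC or CC array. The other endothelial marker, CDH5, was above background on 1 TH array and on no GC or CC array. The other leukocyte marker, CD68, was above background on all 4 arrays of TH, GC, and CC, at means of -2.16, -3.23, and -2.89. Of the 2 leukocyte markers, 1 was called higher in TH and 1 had no call. The summed level of both endothelial markers was -0.08 to 0.65 in TH and -6.46 to -3.82 in GC and CC, and of both leukocyte markers -2.47 to -1.22 in TH and -3.85 to -1.77 in GC and CC. HBB, of red blood cells, was above background on 4 TH, 1 GC, and no CC arrays. Their part in the differences between TH and the other cells was not tested.

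Few kinesins differed between GC and CC. In CC against GC, 2 kinesins were higher, where 5.28% of all genes were higher, and none was lower in limma, where 4.61% of all genes were lower. At an unadjusted p under 0.05 there were 8 kinesins in either direction, or 20.5% of the 39, beside 21.6% of all genes. KIF23 was at -3.26, -2.96, -3.43, and -3.00 in CC and at -4.26, -4.30, -4.40, and -3.71 in GC, without overlap. The difference was 1.00 ± 0.21 (SE), or 2.01-fold (adjusted p = 0.0059).

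KIF7 was at -1.65, -1.79, -1.72, and -1.81 in CC and at -2.44, -2.22, -2.27, and -2.37 in GC. It was 0.58 ± 0.14 (SE) higher in CC, or 1.5-fold (adjusted p = 0.017). Without CC replicate 1 its adjusted p was 0.052, and without GC replicate 4 the count of kinesins higher in CC became 7. With quantile normalization, or with the percentile taken over detected probes, 2 kinesins were higher and 1 lower, and with normexp none was called.

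Oocyte markers differed between CC and GC as well. Of the 6 oocyte markers, 5 were higher in CC than in GC, and their summed level was -0.83 to 1.59 in CC, -2.49 to -1.32 in GC, and 7.96 to 8.37 in oocytes. KIF23 and KIF7 were both higher in oocytes than in CC. Of the 5 theca markers, 2 were lower in CC than in GC and 3 had no call, with a summed level of 4.66 to 5.03 in CC and 4.90 to 6.84 in GC. HBB was also lower in CC than in GC. The part of RNA from oocytes or other cells in the differences of KIF23 and KIF7 was not tested.

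After 4 h of IVM, most mitotic kinesins were lower in CC, while KIF5C and KIF13B were higher. Against CC before IVM, 14 kinesins were lower, where 15.5% of all genes were lower, and 10 were higher, where 30.3% of all genes were higher. The median over the kinesins was 0.06, beside 0.37 over all genes and 0.05 for the 11891 genes detected above background on each of the 8 arrays.

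Of the 12 spindle and division kinesins, 8 were lower after IVM, 1 was higher, and 3 had no call, with a median of -1.40. KIF15 fell from -1.61, -1.46, -1.39, and -1.49 in CC to -3.28, -3.71, -3.61, and -4.04 after IVM. The groups did not overlap, and the difference was -2.17 ± 0.20 (SE), or 4.52-fold (adjusted p = 5.6e-05). KIF11 fell from -2.07, -1.43, -1.96, and -1.80 to -3.77, -3.96, -3.32, and -3.78, a difference of -1.89 ± 0.22 (SE, adjusted p = 0.00019), with 1 of its 2 probes above background on only 1 array after IVM.

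KIF20A was at 0.38, 0.76, 0.63, and 0.72 in CC and at -1.17, -1.18, -0.81, and -1.43 after IVM. Its difference was -1.77 ± 0.20 (SE), or 3.42-fold (adjusted p = 0.00015), again without overlap. KIFC1, KIF2C, KIF18B, KIF18A, and KIF23 were lower by 1.47, 1.45, 1.44, 1.35, and 1.21, KIF23 with 2 of 4 arrays above background after IVM. The brighter sequence of KIFC1 differed by -2.00 and the dimmer, above background on 0 arrays after IVM, by -0.88. KIF2A, at 0.30 ± 0.26 (SE), and KIF14, at 0.14 ± 0.36 (SE), had no call. KIF22 had no call either, at 0.41 ± 0.26 (SE), but this is the middle of 2 probes that differed in opposite directions, by 2.11 and -1.29. Both were above background on all 8 arrays, the former at -4.67 ± 0.36 (SD, n = 4) in CC and -2.56 ± 1.18 (SD, n = 4) after IVM, the latter at -1.48 ± 0.25 (SD, n = 4) and -2.77 ± 0.27 (SD, n = 4).

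KIF24 was the cilium and signalling kinesin with the largest fall, from between -0.20 and 0.14 on the CC arrays to -1.88, -1.52, -1.76, and -1.94 after IVM. The difference was -1.72 ± 0.18 (SE), or 3.30-fold (adjusted p = 0.00012), and both KIF24 probes showed it, at -1.48 for probe A and -1.93 for probe B. KIF9 was lower by 1.69, with 2 of 4 arrays above background after IVM, and KIF7 by 1.07. Among the transport kinesins, KIF3B was lower by 1.23, KIF3C by 0.99, and KIF17 by 0.66, with its 4 probe sequences between -2.10 and 0.77.

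KIF5C was higher in CC after IVM. Its levels were -5.02, -5.98, -5.44, and -4.59 in CC and -2.80, -1.04, -2.73, and -1.45 after IVM, without overlap. The difference was 3.25 ± 0.45 (SE, adjusted p = 0.00052). Probe A, above background on 4 arrays of each group, differed by 4.39, and probe B, above background on no CC array and 2 arrays after IVM, by 2.10.

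KIF13B, a transport kinesin that binds membrane-associated guanylate kinases, was above background on 1 CC array and on all 4 arrays after IVM. Its levels were -7.76, -6.40, -6.98, and -6.81 in CC and -3.60, -3.92, -4.04, and -4.38 after IVM, a difference of 3.00 ± 0.30 (SE, adjusted p = 8.1e-05), for which no fold is given since CC was near background. The difference was seen in 1 of its probe sequences. Probe A averaged -5.83 ± 0.96 (SD, n = 4) in CC and -1.30 ± 0.84 (SD, n = 4) after IVM, whereas probe B was not above background on any array of either group.

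The other kinesins called higher after IVM were close to the limit of detection. KIF13A, KIF21B, KIF26A, KIF2B, and KIFC3 were not above background on any array of either group, so no fold is given. KIF26B was above background on 1 CC array and none after IVM. KIF16B was above background on 1 CC array and on 3 after IVM, at 1.33 ± 0.47 (SE, adjusted p = 0.041).

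KIF25 was called higher by 0.90 ± 0.22 (SE, adjusted p = 0.012), with levels of -5.45, -5.45, -5.38, and -4.93 in CC and -4.34, -4.58, -4.70, and -4.0 after IVM. Its probe A, above background on all 20 arrays, was at -3.16 ± 0.47 (SD, n = 4) in CC and at -3.17 ± 0.51 (SD, n = 4) after IVM. The difference of KIF25 was seen in probe B, which was not above background on any array of either group.

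**Figure D5:**
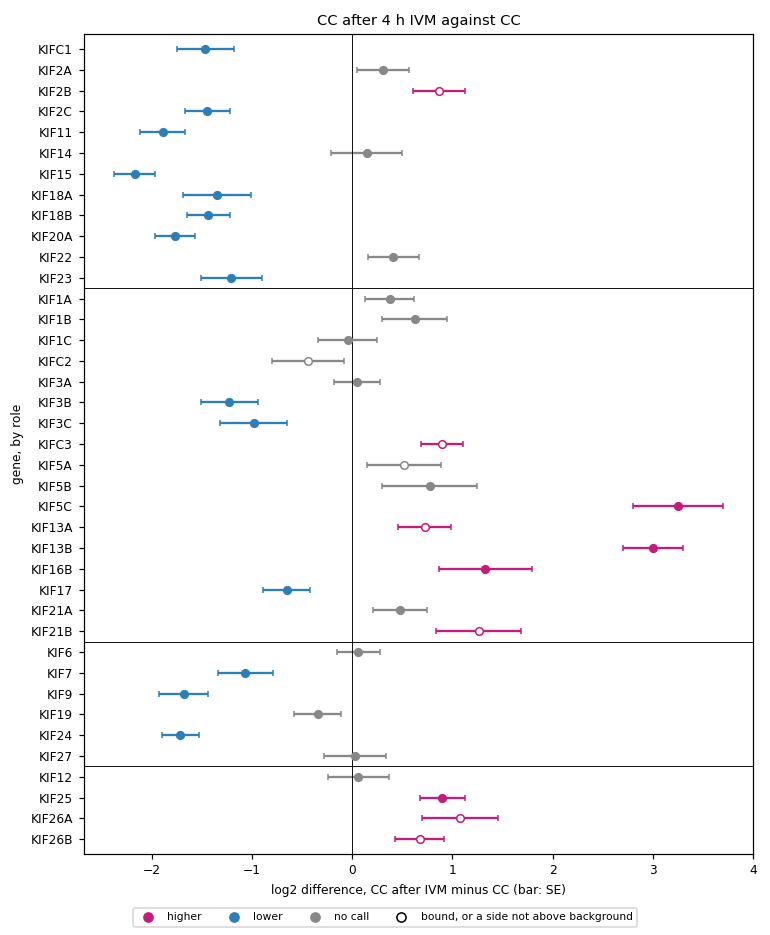
Difference in log2 level of each kinesin gene between CC after 4 h IVM and CC (x axis, with SE from the fit over 8 arrays), genes ordered by role (y axis), colored by call and open where a bound applies or a side was not above background. The spindle kinesins lie mostly left of 0, with KIF15 at -2.17, and KIF5C and KIF13B lie farthest to the right at 3.25 and 3.00.

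Other genes of division were lower as well. Of 19 spindle partners, 14 were lower after IVM and none was higher, with a median of -1.21, and 9 of 12 proliferation markers were lower and 1 higher, with a median of -1.34. MCM5, of the replicative helicase, was lower by 3.1 ± 0.25 (SE), and BUB1B, of the spindle checkpoint, by 2.78 ± 0.38 (SE). KIFAP3 was lower by 1.43 ± 0.22 (SE), beside KIF3B, and KLC1 was higher by 1.01 ± 0.27 (SE), beside KIF5C.

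Oocyte markers were also lower after IVM, 4 of 6 with a call, with a summed level of -2.64 to -0.84 against -0.83 to 1.59 in CC. CD68, of leukocytes, averaged -0.73 after IVM and -2.89 in CC, while PTPRC was not above background in either. The part of these other cells was not tested.

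All arrays after IVM lay on a slide of their own, so that slide and IVM cannot be told apart by comparing slides. The counts of higher and lower kinesins, 10 and 14, were 14 and 14 with slide as a random block (estimated correlation -0.261), 3 and 13 with quantile normalization, 5 and 14 with the percentile over detected probes, and 24 and 10 with normexp. In the same fits quantile normalization turned the split of all genes from 6827 higher and 3505 lower into 2787 higher and 3666 lower. KIF5C and KIF13B were called higher and KIF15, KIF11, KIF20A, and KIF24 lower in each setting tried.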

How the data were processed

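For each of the 20 arrays the authors deposited the scanner output of Agilent Feature Extraction 10.7.3.1 (named in the submitters' processing notes), which lists for every spot the raw intensity, the local background, and an intensity with the background taken off, with no scaling between arrays. A log2 table of the 20 arrays, also deposited, equalled the log2 median pixel intensity centered on the array median (within 5e-09, every column median 0), without background subtraction, and served as an alternative. In the study's methods, cell types were compared by ANOVA with Benjamini–Hochberg correction and Tukey tests in XLSTAT, in place of which limma was used here. The number of arrays limits the precision.

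After removal of control spots and outlier spots, log2 intensities were shifted so that the 75th percentile of each array was 0, and spots were summarized per gene by their median, as in the study. The files left 9779 of 61325 probes unnamed, of which RefSeq accessions named 734. All 22550 genes were fitted in limma 3.58.1 by lmFit and eBayes (R 4.3.3). The 3 somatic cell types and the oocytes (16 arrays) were fitted together, and CC before and after IVM (8 arrays) separately, and the Benjamini–Hochberg adjustment ran over all genes. Figures were drawn with matplotlib 3.10.9 and other summaries computed with numpy 2.4.6 and pandas 2.3.3 (Python 3.11.15). The scripts were tested on simulated data.

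A gene not well above background on any array of a dimmer group was given a bound. In it each array of that group entered at its lowest well-above-background signal or at the measured value, whichever was higher. A dimmer group with some arrays above background entered at its measured values. No fold is given where the dimmer side held such a group beside a group with no array above background. Full statistics were given for called kinesins whose arrays did not overlap, up to 8 in each direction for oocytes and up to 4 in the other contrasts, ranked by the size of the difference, and for genes with probes called in both directions. Values of other kinesins and of partner genes were chosen after they were seen. The kinesins, the lists, and the markers were chosen with earlier results of these data known.

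The alternatives were other scalings, background corrections, probe summaries, filters, covariates, and single slides, and each array left out in turn. For CC after IVM, slide as a random block was added after seeing the data, as was the median over probes above background for all comparisons. Probe coordinates are those of the transcripts on UMD 3.1 in the array files.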

Additional observations from a re-analysis of the deposited data

Results flagged for a closer look

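A level of 1 array lay far from the other 3 of its group for 9 of the 163 pairs of gene and group tested, where chance alone marks about 1 in 20. In GC replicate 4, KIF18B was at -1.17 (others -2.40 to -2.31), KIF22 at -2.30 (others -3.97 to -3.80), and KIF24 at 0.14 (others -0.94 to -0.86). In TH replicate 4, KIFC1 was at -1.28 (others -3.42 to -3.24) and KIF1B at -6.91 (others -4.49 to -4.19). KIFC1 was also low in CC replicate 3, at -2.70 (others -1.67 to -1.60). KIF25 was at -4.93 in CC replicate 4 (others -5.45 to -5.38), KIF6 at -6.21 in oocyte replicate 2 (others -7.66 to -7.42), and KIFC2 at -4.35 in GC replicate 2 (others -5.63 to -5.43). In oocytes KIF6 was above background through probe A alone, and its median lay among sequences that were not. KIF1A, KIF21A, and KIF21B, not above background on any oocyte array, were also highest in oocyte replicate 2, at -6.29, -6.16, and -6.16. KIFC2 was above background on 1 of 4 GC arrays.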

How the results depend on the processing

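The limits were the 4 arrays per group, genes close to background, and the slide of CC after IVM. The number of kinesins differing among the 4 cell types was 30 to 32 with single arrays left out, and in no setting did it, the number higher in oocytes (21 to 22), or the number lower after IVM (12 to 13) change by more than 1.5 times. The 8 kinesins lower in oocytes became 18 with normexp and 4 within slide 1 (7 to 9 with single arrays left out). The 13 lower in TH became 4 within slide 1 and 7 within slide 2 (9 to 15). The 2 higher in TH became 1 with the array median, normexp, the deposited table, a replicate block, a slide block, within slide 2, with eBayes trend and robust, and with probes above background, and 0 within slide 1 (1 to 3, with 1 left without TH replicate 3, any GC array, CC replicates 1, 3, or 4, or oocyte replicate 4). The 2 higher in CC than GC became 0 with normexp and within slides 1 and 2, 1 with all 20 arrays in the fit, and 7 with arrayWeights (1 without CC replicate 1 to 7 without GC replicate 4), and the 0 lower became 1 with quantile normalization, the percentile over detected probes, the filter on dim genes, arrayWeights, and eBayes trend and robust (0 to 1, with 1 without GC replicate 3). The 10 higher after IVM became 3 with quantile normalization, 5 with the percentile over detected probes, 24 with normexp, 4 with the brightest probe, 4 with the filter on dim genes, and 6 with a replicate block. They were 4 to 9 with single arrays left out, with 4 without CC replicate 1 or CC after IVM replicate 4, 5 without CC replicate 3, and 6 without CC replicate 2 or CC after IVM replicate 1. KIF25 after IVM turned from 0.90 to -0.0099 with the brightest probe (adjusted p = 0.98) and with probes above background (adjusted p = 0.98), and was lost with the deposited table. KIF23 and KIF7 in CC lost their calls with normexp and within each slide, and KIF7 also with all 20 arrays and without CC replicate 1. In TH, KIF17 lost its call with the brightest probe, KIF21A within slide 1, and KIF1A with normexp and within slide 1, and KIFC3 after IVM with quantile normalization. With normexp the difference after IVM was 0.92 lower for KIF15 and 0.68 lower for KIF11. Deviations of same-numbered arrays correlated at over 0.1 in 4 of 4 pairs of TH and GC (0.12 to 0.34), 3 of 4 of GC and CC, 2 of 4 of TH and CC, none of the 12 pairs of TH, GC, or CC with oocytes, and none of the 4 of CC and CC after IVM. In groups not compared here, it was 2 of 4 for CC after IVM and oocytes, 1 of 4 for GC and CC after IVM, and 0 of 4 for TH and CC after IVM. The numbers thus went together between TH and GC but not in all groups of any comparison made. With a replicate block, the 13 kinesins lower in TH became 14, and the block changed the counts by more than 1.5 times only where given here. The causes of these changes were not tested.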

Other observations

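KIF4A, KIF20B, and CENPE are further motors of cell division whose probes either carried no gene name in the array files or do not have a KIF name, and they were named through RefSeq or the files. KIF20B, of cytokinesis, was higher in oocytes than in the somatic cells by 3.66 ± 0.22 (SE), KIF4A, of chromosome arms and the midzone, by 1.56 ± 0.24 (SE), and CENPE, which brings chromosomes to the plate, by 1.54 ± 0.34 (SE). After IVM, KIF20B was lower in CC by 1.01 ± 0.20 (SE) and KIF4A by 1.02 ± 0.23 (SE), and CENPE had no call at -0.55 ± 0.28 (SE). The 23 dynein and dynactin genes belong to the motor that runs opposite to most kinesins or work with it. NDE1, NDEL1, PAFAH1B1, BICD1, and BICD2 are of the latter kind. Of the 23 genes, 11 were higher and 9 lower in oocytes, with a median of -0.02, where 32.9% of all genes were higher and 38.3% lower. DYNC1I1, an intermediate chain of dynein, was higher in oocytes by 6.43 ± 0.31 (SE), while DYNC1H1, the heavy chain, was lower by 2.67 ± 0.13 (SE) and DCTN2, of dynactin, by 3.49 ± 0.11 (SE). MAPK8IP2, an adaptor between cargo and kinesin-1, was higher in oocytes by 4.72 ± 0.27 (SE).

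The KIF6 probes A and B share 58 of their 60 bases, shifted by 2. Probe A was above background on 20 of 20 arrays and probe B on 3 of 20, and both were lower in oocytes than in the somatic mean, by 3.13 and 2.02.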
